A study of Mus musculus with 6 samples.

Results

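The transcripts described here are those encoded by the mitochondrial genome. They were chosen as every row of the deposited gene table whose chromosome is MT, which gave 37 of 54532 rows: 13 protein-coding genes, 2 ribosomal RNA (rRNA) genes and 22 transfer RNA (tRNA) genes. Of the protein-coding genes, 12 lie on the plus strand and 1, mt-Nd6, on the minus strand. Both rRNA genes are on the plus strand, and the tRNA genes divide into 14 on the plus and 8 on the minus strand. RNA sequencing was run on 6 mouse libraries whose labels name lung, 3 labelled aged (18 months) and 3 labelled young (3 months), and the design asks how the ages differ. The labels give no strain, sex, genotype or treatment. Nor do they say whether each library stands for its own mouse, so a p-value here speaks only of the spread among libraries, part of which may be technical.

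The mitochondrial genome is a small circle that is read from both strands into long precursor RNAs by its own polymerase, Polrmt, with the factors Tfam and Tfb2m. The tRNAs sit between most of the larger genes, and cutting them out of the precursor frees the mRNAs and rRNAs. The proteins it encodes are all subunits of respiratory complexes I, III, IV and V, which also hold many subunits encoded in the nucleus. The nuclear genome carries copies of pieces of mitochondrial DNA, and reads from a near-identical copy cannot be told from reads of the mitochondrial gene.

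The values are FPKM, that is, fragment counts divided by gene length and by library size. Reads recovered from them totalled between 16649061 and 16906850 in the libraries labelled aged, and between 17266815 and 17456715 in those labelled young. Of 18 lung marker genes, 15 were under 1 FPKM in every library and 1, Aqp5, was at 10 FPKM or more in all 6, so the tissue label is not borne out and the groups are named by their age labels. The sum over the 18 markers was 111 to 121 FPKM in the libraries labelled aged, against 71.4 to 74.4 FPKM in those labelled young. That sum was mostly Aqp5, at 83.5 to 93.6 FPKM in the libraries labelled aged against 55.2 to 58.5 FPKM in those labelled young. Lyz2 went the same way, at 17.8 to 18.8 against 3.84 to 4.51 FPKM. Hopx went the other way, at 5.68 to 6.48 against 9.998 to 10.4 FPKM. Ager overlapped between the groups, and Sftpd was at 0 in all. The part of these markers in the differences below was not tested. Kidney transcripts, a list of 7 genes chosen after their values were seen, summed to 0.424 to 0.655 FPKM in the libraries labelled aged, whereas young replicates 1, 2 and 3 had 175, 0.522 and 40.3 FPKM. With bulk RNA, fewer cells of a type and less RNA per cell cannot be told apart.

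Most of the tRNA reads came from 3 tRNA genes, all on the minus strand, and another minus-strand tRNA, mt-Te, differed most between the groups. Their sequences are shown 5′ to 3′ on the tRNA strand with the anticodon in capitals, beside mt-Th, the most abundant tRNA of the plus strand (annotated transcripts of GENCODE M21, mm10 coordinates).
mt-Tn, asparagine tRNA, MT:5089-5159, minus strand: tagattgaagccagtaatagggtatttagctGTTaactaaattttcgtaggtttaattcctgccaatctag
mt-Tp, proline tRNA, MT:15356-15422, minus strand: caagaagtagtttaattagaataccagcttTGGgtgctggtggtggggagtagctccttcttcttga
mt-Tc, cysteine tRNA, MT:5192-5257, minus strand: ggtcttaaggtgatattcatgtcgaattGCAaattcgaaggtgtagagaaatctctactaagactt
mt-Te, glutamate tRNA, MT:14071-14139, minus strand: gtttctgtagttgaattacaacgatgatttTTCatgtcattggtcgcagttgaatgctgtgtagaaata
mt-Th, histidine tRNA, MT:11546-11612, plus strand: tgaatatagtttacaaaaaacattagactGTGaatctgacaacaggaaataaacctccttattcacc

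A stretch of 4653 bases of the mitochondrial genome, MT:6390-11042, is matched in order by 7 annotated genes on the minus strand of chromosome 1 (1:24611535-24616197, mm10). The pairs of 90 bases below show how close copies can be, with capitals at the bases that differ within each pair. Within the pair from chromosome 1 there is 1 difference, and within the pair from a copy of mt-Co1 on chromosome 2 there are 3.
mt-Nd3, MT:9459-9548, plus strand: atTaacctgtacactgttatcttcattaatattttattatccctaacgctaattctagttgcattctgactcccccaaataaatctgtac
Gm28438, 1:24613030-24613119, minus strand: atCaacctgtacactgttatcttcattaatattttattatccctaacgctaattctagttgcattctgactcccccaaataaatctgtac
mt-Co1, MT:5336-5425, plus strand: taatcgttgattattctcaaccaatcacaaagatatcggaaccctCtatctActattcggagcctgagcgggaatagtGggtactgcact
Gm13340, 2:22589550-22589639, minus strand: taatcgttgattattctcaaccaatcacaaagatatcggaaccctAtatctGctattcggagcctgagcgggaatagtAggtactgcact

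Levels of the protein-coding genes followed this stretch. The 6 protein-coding genes inside it (mt-Co2, mt-Atp8, mt-Atp6, mt-Co3, mt-Nd3 and mt-Nd4l) lay between 6.51 and 98 FPKM over all 6 libraries. The 5 outside it (mt-Nd1, mt-Nd2, mt-Nd5, mt-Nd6 and mt-Cytb) lay between 309 and 2463 FPKM, and the 2 that reach into it, mt-Co1 and mt-Nd4, between 442 and 5475 FPKM. The ranges of the inside and outside genes did not overlap, although all but mt-Nd6 come from the same precursor strand. The 5 tRNA genes inside the stretch reached at most 1.79 FPKM, and the 17 outside it ranged from 0 to 492 FPKM. Low tRNA levels were not particular to the stretch. Outside it, mt-Tf, mt-Tv and mt-Tt were at 0 in every library, and mt-Ti, mt-Tq and mt-Tm reached at most 1.64 FPKM.

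Shared sequence was measured as the percentage of 100-base windows of a gene found unchanged in an annotated nuclear transcript. This was 99.9% for mt-Co3, 99.5% for mt-Co2 and mt-Atp6, 98.5% for mt-Nd4l and 97.6% for mt-Nd3. It was 60.8% for mt-Nd4, 30.8% for mt-Co1, 3.19% for mt-Nd2 and 0% for mt-Rnr1, mt-Rnr2, mt-Nd1, mt-Nd5, mt-Nd6 and mt-Cytb. The lowest levels thus belonged to the genes with almost all windows shared, with 1 exception in this measure, mt-Atp8, which had 0% and a low level. Most of mt-Atp8 lies in a gap between the annotated chromosome 1 genes of the stretch, and the sequence of that gap was not compared here. The last 43 bases of mt-Atp8, which overlap mt-Atp6, fall within the match of Gm10925 but are shorter than a window. The 0% of mt-Atp8 thus speaks of annotated transcripts only. The best match of mt-Atp8 among annotated nuclear transcripts was Gm28925, elsewhere on chromosome 1, 81.4% identical over 167 bases and at 0 FPKM in every library. The sources used here do not give how the authors' counting treated reads that align to several places, and its part in these levels was not tested.

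**Figure D1:**
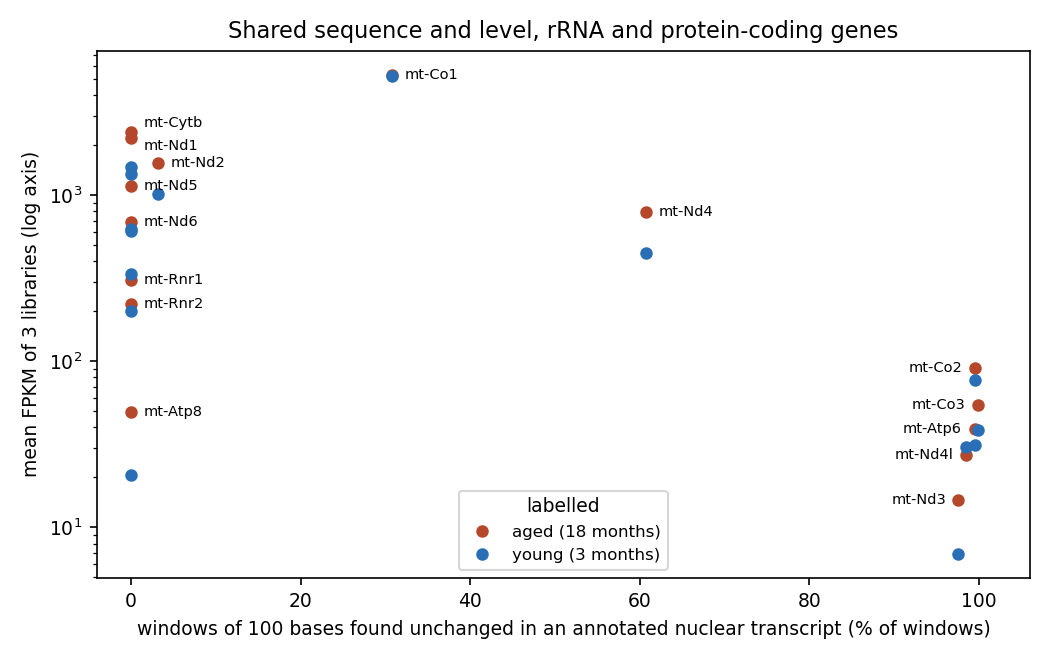
Mean FPKM of 3 libraries per group (log axis) against the percentage of 100-base windows found unchanged in an annotated nuclear transcript, for the 2 rRNA and 13 protein-coding genes, with red points for libraries labelled aged and blue for those labelled young. The 5 genes with at least 97.6% shared windows all lie under 100 FPKM, and mt-Atp8 is the only gene with 0% shared windows that does.

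Mitochondrial RNAs took a larger share of reads in the libraries labelled aged, at 1.92%, 1.98% and 1.92%, against 1.55%, 1.51% and 1.45% in those labelled young. The means were 1.94 ± 0.0349% and 1.50 ± 0.0475% (SD, n = 3 each), a log2 difference of 0.37. The groups did not overlap, with an exact 2-sided permutation p of 0.1, the smallest that 3 libraries against 3 can give. Without young replicates 1 and 3, which hold the kidney transcripts, only young replicate 2 is left in that group, and the log2 difference was 0.36.

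Protein-coding genes made up 96.2% to 96.4% of the mitochondrial reads in the libraries labelled aged, against 93.3% to 93.9% in those labelled young. The rRNA genes made up 3.29% to 3.44% in the libraries labelled aged, against 5.72% to 6.27% in those labelled young. The 22 tRNA genes together made up 0.323% to 0.394% in the libraries labelled aged, against 0.382% to 0.425% in those labelled young, and here the groups overlapped (exact permutation p = 0.2). A single gene, mt-Co1, held 41.8% to 44.7% of mitochondrial reads in the libraries labelled aged, against 53.2% to 53.6% in those labelled young. Genes of the minus strand held 2.17% to 2.24% in the libraries labelled aged, against 1.48% to 1.56% in those labelled young. Most of these reads were of mt-Nd6, with 18330 reads in the libraries labelled aged and 9060 in those labelled young. The most abundant minus-strand tRNA gene, mt-Tn, had 1643 and 1639 reads, so the difference in share was mainly that of mt-Nd6.

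Of the 37 genes, 27 reached 0.5 FPKM in at least 3 of the 6 libraries and were tested with limma on log2(FPKM + 1). At an adjusted p under 0.05, 13 were higher and 1 was lower in the libraries labelled aged, and 13 did not pass the threshold. Without young replicates 1 and 3, which leaves 1 young library, the calls of mt-Rnr2, mt-Co2, mt-Co3, mt-Ta and mt-Th changed, with mt-Th at a log2 fold change of 0.54. In such a change, here and below, the smaller number of libraries and the kidney transcripts cannot be told apart. Over all 15197 genes tested, 60.0% passed, 27.7% as higher and 32.3% as lower. In 14 of the 27 genes the groups did not overlap, against 66.9% of all tested genes. The median log2 fold change was 0.48 over the 27 genes and -0.03 over all tested genes. Higher genes thus made up a larger share of the mitochondrial genes than of all tested genes, lower genes a smaller one, and genes past the threshold in either direction a slightly smaller one.

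**Figure D2:**
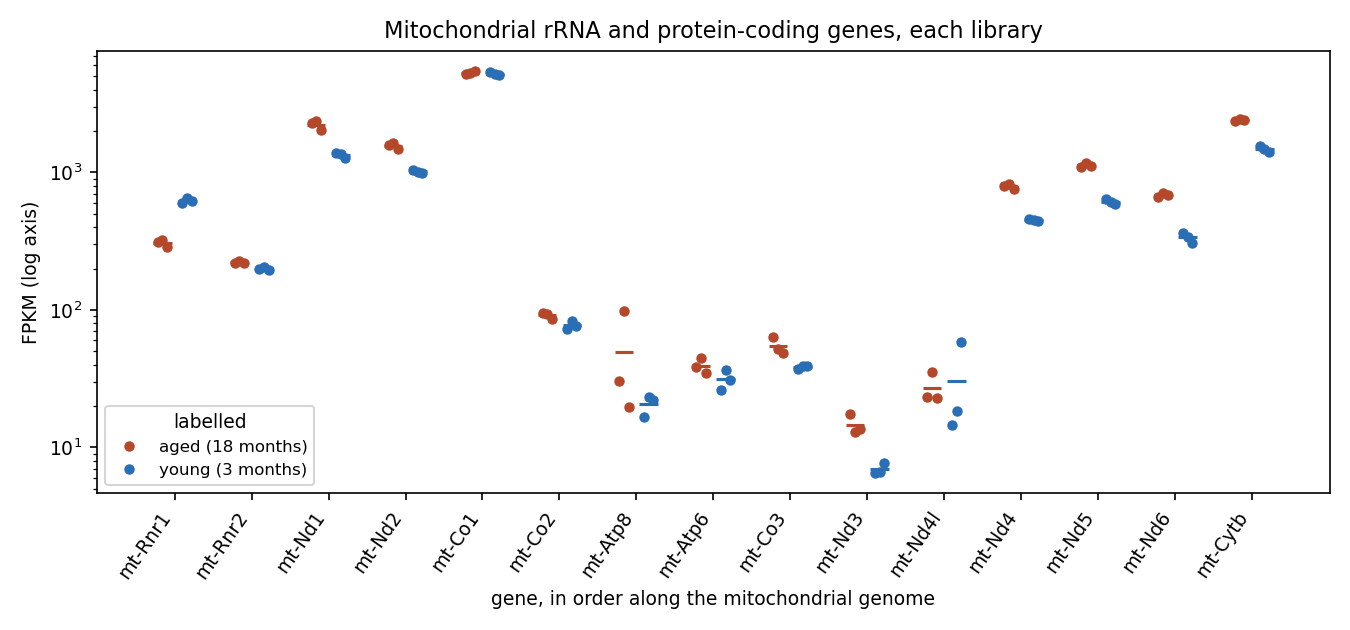
FPKM of the 2 rRNA and 13 protein-coding genes in each library (log axis), ordered by position along the mitochondrial genome, with red points for libraries labelled aged, blue points for those labelled young and bars for the mean of 3. The groups separate for mt-Rnr1, mt-Nd1, mt-Nd2, mt-Nd4, mt-Nd5, mt-Nd6 and mt-Cytb, overlap for mt-Co1, and the genes between mt-Co1 and mt-Nd4 sit under 100 FPKM.

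Both rRNA genes passed the threshold, in opposite directions. The gene mt-Rnr1 (ENSMUSG00000064337, MT:70-1024, plus strand), the rRNA of the small mitochondrial ribosomal subunit, had 314, 325 and 287 FPKM in the libraries labelled aged, against 598, 653 and 623 FPKM in those labelled young. Every library labelled aged was below every library labelled young. The log2 fold change was -1.02 ± 0.06 (SE), with an adjusted p of 2.06e-05. The gene mt-Rnr2 (ENSMUSG00000064339, MT:1094-2675, plus strand), the rRNA of the large subunit, had 218, 227 and 220 FPKM in the libraries labelled aged and 199, 207 and 196 FPKM in those labelled young. The groups did not overlap, but the difference was small, at a log2 fold change of 0.14 ± 0.04 and an adjusted p of 0.0120. Without young replicates 1 and 3 it was 0.10 with an adjusted p of 0.196.

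The 2 rRNA genes are neighbours on the same strand with mt-Tv between them, yet their balance differed between the groups. The ratio of mt-Rnr2 to mt-Rnr1 FPKM was 0.694, 0.699 and 0.767 in the libraries labelled aged and 0.333, 0.317 and 0.315 in those labelled young. The groups were far apart compared with the spread within them, and the log2 difference of the means was 1.16 (exact permutation p = 0.1). Neither gene shares a window of 100 bases with an annotated nuclear transcript. The sum of both rRNAs over the mean of the 13 protein-coding genes was 0.486, 0.486 and 0.466 in the libraries labelled aged and 0.944, 1.046 and 1.032 in those labelled young. That is a log2 difference of -1.07 without overlap (exact permutation p = 0.1), and -1.38 against the 5 genes outside the copied stretch, a comparison added after the data were seen. Mature rRNAs carry no long poly(A) tail, and whether poly(A) selection was used is not stated in the sources used here. The part of library preparation in the rRNA levels and ratios was not tested.

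**Figure D3:**
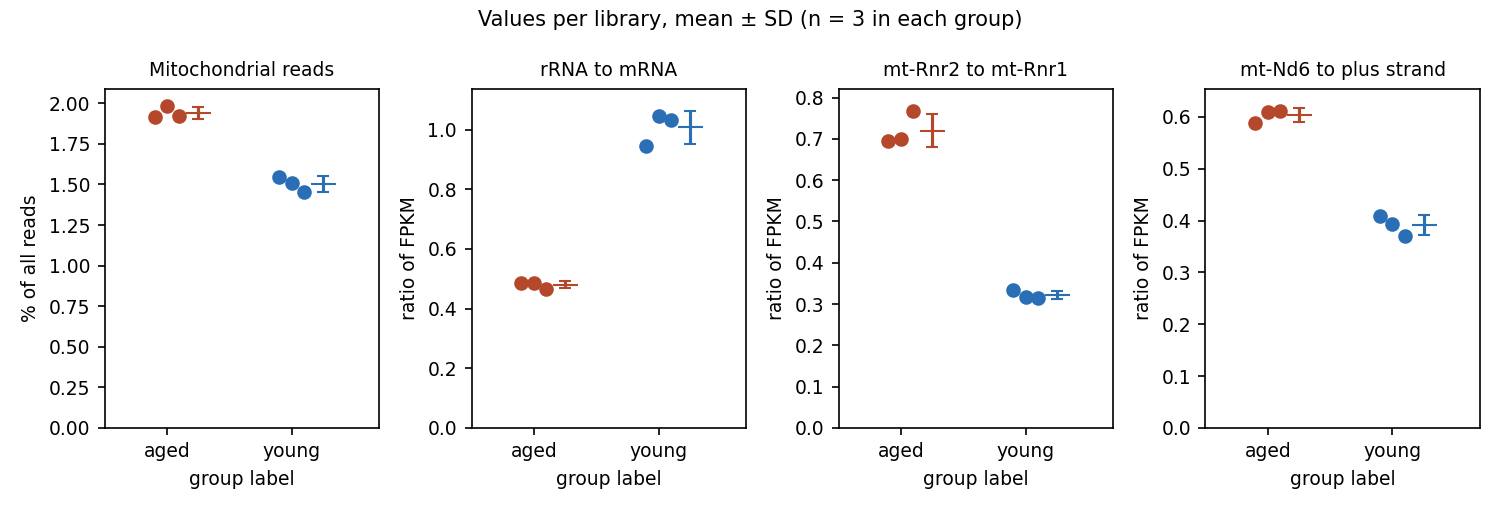
Values per library with the mean ± SD of 3 libraries, labelled aged on the left and labelled young on the right of each panel, for the mitochondrial share of reads (%), the rRNA to mRNA ratio, the mt-Rnr2 to mt-Rnr1 ratio and the ratio of mt-Nd6 to the mean of the 12 plus-strand protein-coding genes (ratios of FPKM). The groups do not overlap in any panel, and the rRNA to mRNA ratio is the only one that is lower in the libraries labelled aged, at 0.479 ± 0.0116 against 1.01 ± 0.0553.

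Of the 13 protein-coding genes, 9 were higher in the libraries labelled aged, 0 were lower and 4 did not pass the threshold (mt-Co1, mt-Atp8, mt-Atp6 and mt-Nd4l), with a median log2 fold change of 0.70. All 5 genes outside the copied stretch were higher, as was 1 of the 2 that reach into it and 3 of the 6 inside it. The genes are taken below by the respiratory complex that their proteins join.

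Complex I oxidises NADH, and 7 of its subunits are encoded in mitochondria. The gene mt-Nd1 (MT:2751-3707) had 2281, 2347 and 2018 FPKM in the libraries labelled aged, against 1395, 1365 and 1270 FPKM in those labelled young, a log2 fold change of 0.72 ± 0.07 (SE) with an adjusted p of 2.31e-04. Its neighbour mt-Nd2 (MT:3914-4951) had 1581, 1646 and 1476 FPKM in the libraries labelled aged, against 1049, 1014 and 991 FPKM in those labelled young, a log2 fold change of 0.62 ± 0.06. In both genes the lowest library labelled aged was well above the highest labelled young.

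Further along the plus strand, mt-Nd4 (MT:10167-11544) had 791, 817 and 760 FPKM in the libraries labelled aged and 457, 450 and 442 FPKM in those labelled young, 1.76-fold higher by the means. The gene mt-Nd5 (MT:11742-13565) had 1095, 1177 and 1120 FPKM in the libraries labelled aged and 641, 607 and 586 FPKM in those labelled young, 1.85-fold higher. The pattern was the same as for mt-Nd1 and mt-Nd2, with no overlap and a narrow spread in each group.

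The 2 short complex I genes inside the copied stretch had few reads. The gene mt-Nd3 had 17.4, 13 and 13.5 FPKM in the libraries labelled aged and 6.51, 6.62 and 7.66 FPKM in those labelled young, 2.12-fold higher with an adjusted p of 3.58e-04. The gene mt-Nd4l had 23.3, 35.3 and 22.7 FPKM in the libraries labelled aged and 14.7, 18.4 and 58.3 FPKM in those labelled young. Young replicate 3 stood above all other libraries there, and the log2 fold change was 0.07 ± 0.49 with all libraries (adjusted p = 0.911) and 0.66 without that library (adjusted p = 0.0411).

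The only protein-coding gene of the minus strand, mt-Nd6 (ENSMUSG00000064368, MT:13552-14070), also encodes a complex I subunit. It had 664, 714 and 686 FPKM in the libraries labelled aged, against 362, 339 and 309 FPKM in those labelled young. Every library labelled aged was higher, by 2.04-fold on the means, with a log2 fold change of 1.03 ± 0.06 and an adjusted p of 2.81e-05. Relative to the mean of the 12 plus-strand genes, mt-Nd6 stood at 0.588, 0.610 and 0.612 in the libraries labelled aged and 0.409, 0.394 and 0.370 in those labelled young, a log2 difference of 0.63 (exact permutation p = 0.1).

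This difference was smaller against other plus-strand references that leave out mt-Co1, whose own log2 fold change was 0.02. The log2 difference was 0.15 against mt-Nd5 alone, whose end overlaps mt-Nd6 by 14 bases on the other strand, and 0.32 against the 4 plus-strand genes outside the copied stretch, the second of these added after the data were seen. In each case the groups did not overlap. The sources used here do not state whether the counting used strand, so reads of mt-Nd6 and reads antisense to it cannot be told apart.

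Complex III passes electrons to cytochrome c and has 1 mitochondrially encoded subunit, cytochrome b. Its gene mt-Cytb (ENSMUSG00000064370, MT:14145-15288, plus strand) had 2382, 2463 and 2393 FPKM in the libraries labelled aged, against 1552, 1479 and 1412 FPKM in those labelled young. The groups were clearly apart, with a log2 fold change of 0.70 ± 0.06 and an adjusted p of 7.05e-05.

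Complex IV, cytochrome c oxidase, takes its 3 core subunits from mt-Co1, mt-Co2 and mt-Co3. The gene mt-Co1 (ENSMUSG00000064351, MT:5328-6872, plus strand) was the most abundant mitochondrial RNA, with 5165, 5259 and 5475 FPKM in the libraries labelled aged and 5355, 5220 and 5077 FPKM in those labelled young. The groups overlapped and the log2 fold change was 0.02 ± 0.07 with an adjusted p of 0.790. The genes mt-Co2 and mt-Co3, both inside the copied stretch, were higher, at 91.6 ± 5.12 against 77.1 ± 5.39 FPKM (adjusted p = 0.0127) and at 54.9 ± 7.99 against 38.5 ± 0.912 FPKM (adjusted p = 0.00379) in the libraries labelled aged against those labelled young (mean ± SD, n = 3 each). Neither passed without young replicates 1 and 3, where the log2 fold changes were 0.14 (adjusted p = 0.200) and 0.47 (adjusted p = 0.0792).

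Complex V, the ATP synthase, takes mt-Atp6 and mt-Atp8 from mitochondria, 2 genes that overlap by 43 bases on the same strand. The gene mt-Atp8 had 30.2, 98 and 19.7 FPKM in the libraries labelled aged and 16.5, 23.4 and 22.2 FPKM in those labelled young. Aged replicate 2 stood far above the rest, and the log2 fold change was 0.90 ± 0.53 with it (adjusted p = 0.191) and 0.24 without it (adjusted p = 0.385). The gene mt-Atp6 had 38.2, 44.8 and 34.6 FPKM in the libraries labelled aged and 26.4, 36.8 and 31.0 FPKM in those labelled young. It overlapped and did not pass (adjusted p = 0.0813), but passed without young replicate 2 at a log2 fold change of 0.43 (adjusted p = 0.0263).

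Summed by complex, the complex I genes reached 6433 ± 325 FPKM in the libraries labelled aged and 3796 ± 130 FPKM in those labelled young, a log2 difference of 0.76. The complex IV genes summed to 5446 ± 147 FPKM in the libraries labelled aged and 5333 ± 136 FPKM in those labelled young, a log2 difference of 0.03 with overlap. The complex V genes summed to 88.5 ± 47.5 FPKM in the libraries labelled aged and 52.1 ± 8.73 FPKM in those labelled young, also with overlap. Exact permutation p-values adjusted over the 4 complexes were 0.2 for complexes I and III, 0.5 for IV and 0.267 for V, where no value under 0.05 is possible. Complex I thus summed to more than complex IV in every library labelled aged and to less in every library labelled young. These sums carry the limit of the copied stretch, which holds mt-Co2, mt-Co3, both complex V genes, mt-Nd3 and mt-Nd4l. The complex IV sum is nearly all mt-Co1, which averaged 5300 FPKM in the libraries labelled aged and 5217 FPKM in those labelled young.

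The same genes were then set relative to each other, by scaling each library to the mean of its 13 protein-coding genes. In this scaling the median log2 fold change of all tested genes was -0.46, with 76.5% of them past the threshold, 7.26% as higher and 69.3% as lower. Of the 27 mitochondrial genes, 9 were higher, 6 were lower and 12 did not pass, and without young replicates 1 and 3 the counts were 6 higher and 7 lower. Relative to that mean, mt-Rnr1 was at -1.45, mt-Co1 at -0.41 (adjusted p = 0.00380), mt-Rnr2 at -0.29, mt-Nd2 at 0.19, mt-Cytb at 0.27, mt-Nd1 at 0.29, mt-Nd4 at 0.38, mt-Nd5 at 0.45 and mt-Nd6 at 0.60, all past the threshold. Of these, mt-Nd2 did not pass without aged replicate 1 (adjusted p = 0.0896), aged replicate 2 (0.102) or young replicate 2 (0.0942), and neither mt-Nd2 (0.105) nor mt-Nd1 (0.0791) passed without young replicates 1 and 3. The scaling lowers the log2 fold change of every gene by the same amount, so the sign of mt-Rnr2 differs between it and the deposited scaling.

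Since mt-Co1 alone weighs heavily in that mean, the result depends on the genes that set it. With the mean of the 5 genes outside the copied stretch, 2 mitochondrial genes were higher and 13 lower, and mt-Nd1, mt-Nd2 and mt-Cytb were at -0.02, -0.12 and -0.04. The order among the well-covered genes is the same in any such scaling, with mt-Rnr1 lowest, then mt-Co1 and mt-Rnr2, and with mt-Nd5 and mt-Nd6 highest. Position alone followed this order loosely, with a Spearman's rho of 0.28 between gene start and log2 fold change over the 12 plus-strand protein-coding genes and 0.31 over the 6 of them not inside the copied stretch, a description in which all genes share the same libraries.

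**Figure D4:**
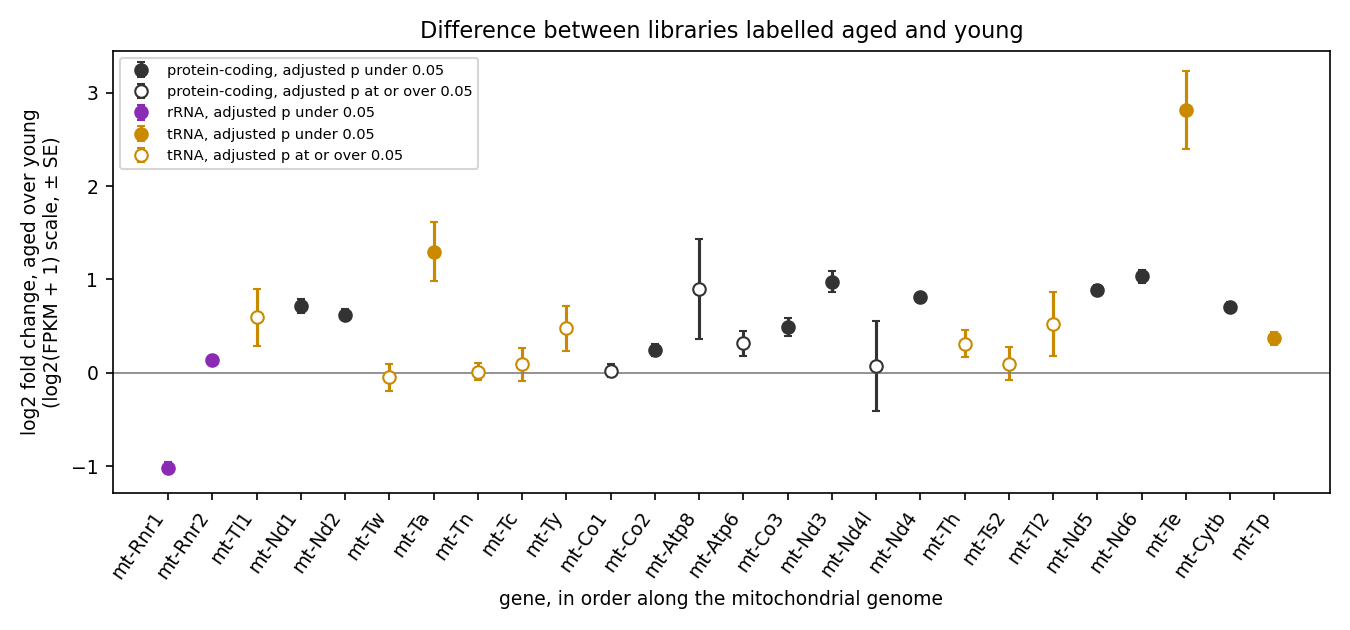
Log2 fold change of libraries labelled aged over those labelled young, on the log2(FPKM + 1) scale with ± SE, for the 26 mitochondrial genes with at least 10 reads over all libraries, in genome order. Filled points have an adjusted p under 0.05: mt-Rnr1 is the only one below 0, mt-Co1 lies at 0.02, mt-Nd1, mt-Nd2, mt-Nd4, mt-Nd5, mt-Nd6 and mt-Cytb lie between 0.62 and 1.03, and mt-Te lies at 2.82.

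The tRNA genes were mostly near or at 0. Of the 22, 6 had no read in any library (mt-Tf, mt-Tv, mt-Ts1, mt-Td, mt-Tg and mt-Tt), 5 had 1 to 9 reads over all libraries (mt-Ti, mt-Tq, mt-Tm, mt-Tk and mt-Tr, of which mt-Tr passed the filter) and 11 had at least 10. In the libraries labelled aged against those labelled young, 3 of the 12 tested tRNA genes were higher, 0 were lower and 9 did not pass. The share of higher genes was thus near the 27.7% of all tested genes, of which 32.3% were lower. A count of 3 reads on a gene of 1 kilobase would give 0.173 to 0.177 FPKM, and a tRNA gene is far shorter, so each read weighs more.

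The most abundant tRNA, mt-Tn, had 492, 473 and 388 FPKM in the libraries labelled aged and 427, 464 and 445 FPKM in those labelled young, with overlap and an adjusted p of 0.927. Next came mt-Tp, with 283, 263 and 241 FPKM in the libraries labelled aged and 216, 193 and 200 FPKM in those labelled young. That gene did not overlap between groups and was higher by a log2 fold change of 0.37 ± 0.07 (adjusted p = 0.00335). The third, mt-Tc, had 151, 180 and 112 FPKM in the libraries labelled aged and 122, 133 and 155 FPKM in those labelled young, and did not pass.

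These 3 tRNA genes stood far above the plus-strand tRNA genes, of which the most abundant, mt-Th, had 33.0 to 37.3 FPKM in the libraries labelled aged, against 24.1 to 36.3 FPKM in those labelled young. The tRNA genes mt-Tn and mt-Tc are separated by a short gap on the minus strand, next to mt-Ta and mt-Ty, which stood at 1.69 to 4.22 and 10.6 to 13.9 FPKM in the libraries labelled aged, against 0 to 0.840 and 6.07 to 13 FPKM in those labelled young. Levels of adjacent tRNA genes thus differed widely within the same libraries. Modified bases and tight folding are known to hinder the copying of tRNAs into cDNA, and their part in these levels was not tested.

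The largest difference of any mitochondrial gene was that of mt-Te, which lies between mt-Nd6 and mt-Cytb and is read from the minus strand, as mt-Nd6 is. It had 27, 20.5 and 31.2 FPKM in the libraries labelled aged, against 6.73, 1.67 and 1.68 FPKM in those labelled young. Every library labelled aged was above every library labelled young, with a log2 fold change of 2.82 ± 0.42 and an adjusted p of 0.00115. The reads behind it were few, 93 in the libraries labelled aged and 12 in those labelled young, a depth-scaled ratio of 7.83 with an exact 95% interval of 4.27 to 15.7 that covers counting error only.

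The gene mt-Ta, the alanine tRNA, rested on fewer still, with 10 reads in the libraries labelled aged and 2 in those labelled young. The ratio was 5.05, with an interval of 1.08 to 47.4. Its adjusted p was 0.0110 with all libraries and 0.0998 without young replicates 1 and 3. The plus-strand tRNA genes mt-Tl1, mt-Th, mt-Ts2, mt-Tl2 and mt-Tw and the minus-strand mt-Ty lay between 6.07 and 37.3 FPKM and did not pass. Their calls moved with single libraries: without young replicate 3, mt-Th passed at a log2 fold change of 0.49 and mt-Ty at 0.73, and without aged replicate 1, mt-Tl1 passed at 0.88.

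Transcripts that, like tRNAs and mature rRNAs, carry no long poly(A) tail were looked up as a separate nuclear list of 15. They lay between 0 and 4.25 FPKM in all libraries, and 5 were tested. Of these 1, Scarna13, was higher and 4 did not pass, beside 27.7% higher and 32.3% lower among all tested genes. The Scarna13 call rested on 22 reads over all libraries (limma adjusted p = 0.0490). Its groups barely separated, at 0.846 to 1.29 FPKM in the libraries labelled aged against 0 to 0.843 FPKM in those labelled young. The 7SK RNA Rn7sk averaged 1.18 FPKM in the libraries labelled aged and 0.992 FPKM in those labelled young, and Rmrp and Rpph1, the RNAs of the nuclear RNase MRP and RNase P, were at 0 in all libraries. The sources used here do not state whether poly(A) selection was used.

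The rows of the chromosome 1 copies also held values. Reads of such near-identical pairs cannot be told apart, so a value on a copy's row may come from mitochondrial reads. Whether the copies are transcribed was not tested. The copy of mt-Co2, Gm28661, averaged 93.2 ± 4.68 FPKM in the libraries labelled aged and 77.5 ± 3.68 FPKM in those labelled young, about the level of mt-Co2 itself. Over their aligned 681 bases the pair has 0 mismatches. The copy of mt-Atp6, Gm10925, averaged 89.5 ± 1.44 FPKM in the libraries labelled aged and 63.0 ± 3.66 FPKM in those labelled young, above mt-Atp6 in every library. Gm28438, the copy of mt-Nd3 printed above, averaged 67.5 ± 6.51 FPKM in the libraries labelled aged and 41.7 ± 1.48 FPKM in those labelled young, several times the level of mt-Nd3.

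Each mitochondrial gene was set beside its chromosome 1 copy, with which it may share reads. By ratio of mean FPKM, aged over young, mt-Co2 was at 1.19 and Gm28661 at 1.20. For mt-Co3 it was 1.42 and for its copy Gm28437 also 1.42. Further, mt-Nd4 was at 1.76 and its copy Gm28439, which covers 876 of its bases, at 1.85. The gene mt-Co1 was at 1.02 and its partial copy Gm29216 at 1.14, and neither passed the threshold. The ratio was 1.25 for mt-Atp6 and 1.42 for its copy, 2.12 for mt-Nd3 and 1.62 for its copy, and 0.890 for mt-Nd4l and 1.76 for its copy Gm10222. Of 9 nuclear rows listed as such copies with at least 10 reads, 7 were higher, 0 were lower and 2 did not pass. Among all tested genes 27.7% were higher and 32.3% lower. These 9 hold the 7 of chromosome 1, of which all but Gm29216 were higher. The other 2, Gm10221, which was higher, and Gm10288, which did not pass, aligned to no mitochondrial gene here.

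**Figure D5:**
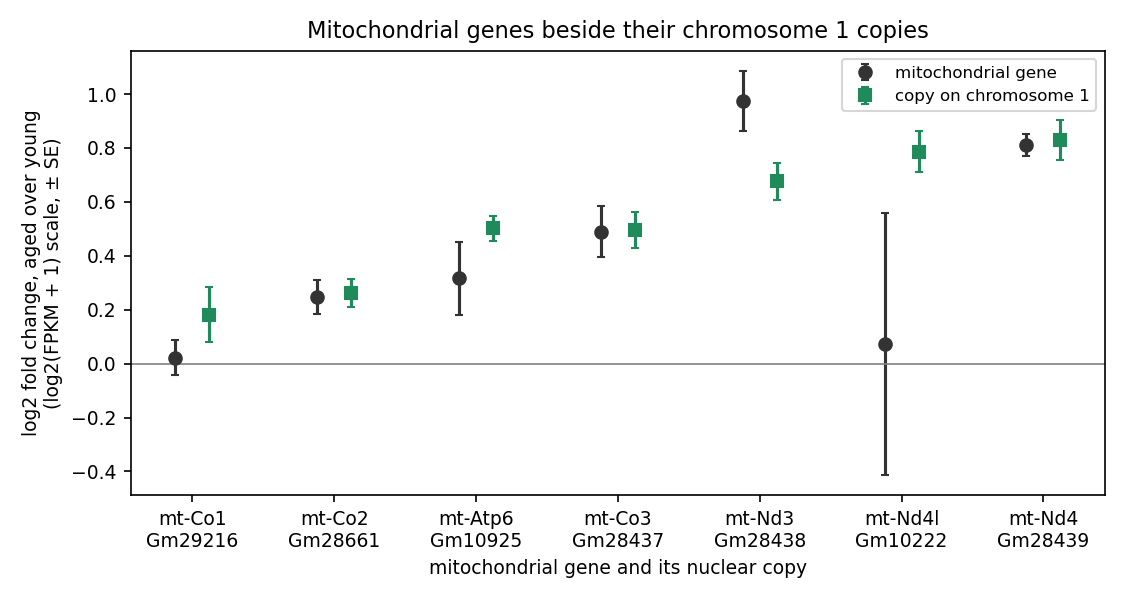
Log2 fold change of libraries labelled aged over those labelled young, on the log2(FPKM + 1) scale with ± SE, for 7 mitochondrial genes (circles) and the chromosome 1 gene that matches each (squares), in mitochondrial order. The pairs of mt-Co2, mt-Co3 and mt-Nd4 lie within 1 SE of each other, mt-Nd3 lies above its copy, and mt-Nd4l has the widest error, 0.49.

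The copy of mt-Co1 on chromosome 2, Gm13340, is 97.6% identical to the whole gene. It lay between 0.113 and 0.414 FPKM in all libraries, far below the 5077 to 5475 FPKM of mt-Co1. Copies less alike stood lower: Gm13339, matching part of mt-Nd2, and Gm11407, Gm11408 and Gm11410, matching parts of mt-Nd5 and all or nearly all of mt-Nd6 and mt-Cytb, were at 0 in every library.

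Nuclear genes that serve mitochondria were described by 10 lists, over which 45 genes were higher and 49 lower with all libraries, and 28 were higher and 40 lower without young replicates 1 and 3. The counts below stand beside 27.7% higher and 32.3% lower among all tested genes. Of 10 transcription genes, 4 were higher, 0 were lower and 6 did not pass, with a median log2 fold change of 0.07. The polymerase Polrmt had 12.5, 12.3 and 11.7 FPKM in the libraries labelled aged and 9.81, 10.1 and 10.1 FPKM in those labelled young, a log2 fold change of 0.26 ± 0.04 (adjusted p = 0.00126). Tfam, which packs mitochondrial DNA and opens its promoters, was 1.16-fold higher (adjusted p = 0.00560), and so were the transcription-termination family members Mterf1a at 1.35-fold and Mterf3 at 1.17-fold. Tfb2m, the promoter-melting factor, averaged 6.50 FPKM in the libraries labelled aged and 6.12 FPKM in those labelled young and did not pass (adjusted p = 0.190).

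Among 22 genes of mitochondrial RNA processing and decay, 10 were higher, 7 lower and 5 did not pass, with a median of 0.07. Lrpprc, which binds and stabilises mitochondrial mRNAs, averaged 16.0 ± 0.296 FPKM in the libraries labelled aged and 10.5 ± 0.368 FPKM in those labelled young. Its partner Slirp averaged 2.28 FPKM in the libraries labelled aged and 2.24 FPKM in those labelled young and did not pass, nor did the poly(A) polymerase Mtpap. The members of the degradosome differed in sign, with the helicase Supv3l1 higher at 9.47 against 6.21 FPKM and the ribonuclease Pnpt1 lower at 15.9 against 22.2 FPKM in the libraries labelled aged against those labelled young. Hsd17b10, a subunit of mitochondrial RNase P, which cuts the 5′ ends of tRNAs, was lower at 34.9 ± 1.68 FPKM in the libraries labelled aged against 66.0 ± 0.736 FPKM in those labelled young. Another subunit, Trmt10c, was higher, at 12.02 ± 0.887 FPKM in the libraries labelled aged against 8.86 ± 0.567 FPKM in those labelled young (adjusted p = 0.00182). The subunit Prorp did not pass (log2 fold change 0.003, adjusted p = 0.968), so the subunits did not differ in the same way. Rexo2, an exonuclease for very short RNAs, averaged 33.8 FPKM in the libraries labelled aged and 21.1 FPKM in those labelled young.

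Among genes that modify mitochondrial RNA, 8 of 19 tested were higher, 7 were lower and 4 did not pass. The pseudouridine synthase Pus1 was 1.80-fold higher. Tfb1m, which methylates the rRNA encoded by mt-Rnr1, was lower, at 5.33 ± 0.566 FPKM in the libraries labelled aged against 8.12 ± 0.764 FPKM in those labelled young. Of the 21 mitochondrial tRNA synthetase genes, 2 were higher, 6 were lower and 13 did not pass, among the lower Iars2 at 7.48 against 13.5 FPKM and Vars2 at 3.62 against 6.89 FPKM in the libraries labelled aged against those labelled young. Of the 13 genes of mitochondrial DNA maintenance, 3 were higher, 3 were lower and 7 did not pass, among these last the polymerase Polg (adjusted p = 0.274).

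The 8 regulators of mitochondrial biogenesis had a median of -0.34, with 1 higher, 4 lower and 3 not past. Esrra averaged 14.2 FPKM in the libraries labelled aged against 21.4 FPKM in those labelled young, Gabpa 8.84 against 13.5 FPKM and Nrf1 2.41 against 4.38 FPKM, all transcription factors of nuclear genes for mitochondria. The coactivator Ppargc1a did not pass (adjusted p = 0.201).

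The nuclear genes for subunits of the same complexes were also counted. Of 72 nuclear genes for complexes I, III, IV and V, 17 were higher, 22 were lower and 33 did not pass, with a median log2 fold change of -0.01, shares near those of all tested genes (27.7% higher and 32.3% lower, median -0.03). For complex I, 7 of 37 were higher and 10 lower, with Ndufc2 at 101 ± 2.59 FPKM in the libraries labelled aged against 153 ± 7.24 FPKM in those labelled young. For complex III, 2 of 9 were higher and 4 lower, and for complex V, 4 of 15 were higher and 7 lower. For complex IV, 4 of 11 were higher and 1 lower, with Cox4i1 at 242 ± 15.3 FPKM in the libraries labelled aged against 187 ± 14.7 FPKM in those labelled young.

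Set against each other, the mean FPKM of the 13 mitochondrial genes over that of the 72 nuclear genes was 12.5, 13.2 and 13.5 in the libraries labelled aged and 10.4, 9.42 and 8.81 in those labelled young. The groups did not overlap, and the log2 difference was 0.46 (exact permutation p = 0.1). With the 5 mitochondrial genes outside the copied stretch, a choice made after the data were seen, it was 0.77.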

How the data were processed

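The authors deposited FPKM values per gene for 6 libraries. Per the labels' protocols, RNA was extracted with TRIzol and paired-end reads were aligned with HISAT2 2.0.5, to mm10 per the submitters' processing notes. The sources used here do not give the counting program or its handling of strand and of multiply aligned reads. In each library 100% of the values above 0, multiplied by gene length, were whole reads within 0.01, which gave the read totals, and intervals on reads cover counting error only. Libraries were compared before averaging: chi-square per degree of freedom was 2.25 to 4.93 within and 76.8 to 81.6 between groups. Each library was counted as 1 sample, though these values cannot tell separate mice from separate preparations of the same RNA. Genes with at least 0.5 FPKM in 3 of 6 libraries were tested on log2(FPKM + 1), which understates the change of low genes, with limma 3.58.1 in R 4.3.3 (trend, 2-sided, Benjamini-Hochberg over 15197 genes, threshold 0.05). Folds are ratios of mean FPKM. Shares and ratios used exact permutation tests. Sequences are GENCODE M21 transcripts, and windows and BLAST 2.17.0 matches were searched among its nuclear transcripts. On simulated reads for this comparison (15202 genes tested), the test called 71% of genes changed 1.5-fold, 86% of genes changed 2-fold and 18 of 15005 unchanged genes. Far fewer genes were changed in the simulation than passed in the data, and all of them lay above a read minimum. The simulated spread was taken from these libraries. These rates thus need not hold for the data.

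The members and lists were chosen with earlier results of these data known. Text names the 13 protein-coding and 2 rRNA genes, tRNA genes with at least 10 reads, annotated nuclear copies with at least 10 reads, and, from each nuclear list, genes among the 5 with the smallest p or chosen by function. Alternatives changed the pseudocount, filter, scaling, limma options, threshold, block, reference genes and libraries.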

Additional observations from a re-analysis of the deposited data

How the results depend on the processing

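Across all settings of the limma fit, 10 to 16 mitochondrial genes were higher and 1, mt-Rnr1, was lower in the libraries labelled aged. Leaving out each library gave 13 to 16 higher. The replicate number of the labels did not pair the libraries (correlations of deviations 0.00562, -0.00793 and 0.0192), and with it as a block 14 were higher and 1 lower, and 7 higher and 4 lower relative to the mean of the 13 genes. Without young replicates 1 and 3, chosen after seeing the data, 10 were higher and 1 lower, 6 and 7 relative to the mean of the 13 genes, 28 genes of the nuclear lists were higher in place of 45, and mt-Tn and mt-Ts2 turned to -0.0492 and -0.10 (log2), with 1 young library left whose spread is assumed to be that of the others. As shares of the 13 genes, complex IV was at -0.40, and over plus-strand rows alone the tRNA share was at 0.0132. Median centring put mt-Tw at 0.0171. Leaving out libraries gave -0.0560 to 0.12 for mt-Tn, -0.18 to 0.0607 for mt-Tw, -0.0667 to 0.28 for mt-Tc, -0.0553 to 0.25 for mt-Ts2, -0.30 to 0.66 for mt-Nd4l and -0.00113 to 0.0414 for mt-Co1. Scaled to the median of the 13 genes, 1 gene was higher and 16 lower, with mt-Nd1, mt-Nd2, mt-Nd4, mt-Nd5, mt-Nd6 and mt-Cytb at -0.31, -0.41, -0.22, -0.15, -0.0022 and -0.33. Scaled to the mean of the 5 genes outside the copied stretch, 2 were higher and 13 lower, with mt-Nd1, mt-Nd2 and mt-Cytb at -0.0233, -0.12 and -0.0383. The cause was not tested beyond the changed divisor. The exact tests of shares, ratios and complex sums cannot reach 0.05 in any setting, so they say nothing of stability. The gene mt-Atp6 passed under median centring, TPM without mitochondrial rows, the block, voom on recovered reads and without young replicate 2. Count models and voom with another scaling were not run, since the deposited unit is FPKM.

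Depth limits the tRNA genes most, since 11 of 22 had at most 9 reads over all libraries. Shared sequence limits the 6 genes inside the copied stretch and, in part, mt-Co1 and mt-Nd4.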
